A study of Mus musculus with 6 samples.

Results

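The miR-17-92 and miR-106b-25 clusters are groups of miRNAs that are each cut from 1 shared primary transcript. Their members were taken by name from the small RNA table, as every mouse miRNA entry of miR-17, miR-18a, miR-19a, miR-19b, miR-20a or miR-92a (miR-17-92) and of miR-106b, miR-93 or miR-25 (miR-106b-25), with either arm of the hairpin. This gave 20 entries, 14 by the names of miR-17-92 and 6 by those of miR-106b-25, among 1900 miRNA entries and 45932 entries in all. The 14 include miR-19b-2-5p and miR-92a-2-5p, which match by name but come from genes on chromosome X. The 9 arms that are usually counted as the guide strand are called main arms here: miR-17-5p, miR-18a-5p, miR-19a-3p, miR-20a-5p, miR-19b-3p and miR-92a-3p, and miR-106b-5p, miR-93-5p and miR-25-3p.

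The 6 libraries came from round spermatids, the haploid cells that follow meiosis, purified from testes of C57BL/6 mice at postnatal day 21. In 3 libraries (KO) the donors lacked Miwi in all tissues, through a knockout line recovered from frozen sperm, and in 3 libraries (WT) they were wild type. Per the design text, spermatids of the knockout males develop no further than step 4, and no treatment is given for these cells. MIWI (gene Piwil1) is the PIWI protein that binds pachytene piRNAs, a class of small RNA that is far more abundant than miRNAs in these cells. The study asked whether small RNAs of round spermatids differ without MIWI. The Miwi mRNA itself was not analysed here, since both tables hold small RNAs. The labels number the libraries within each genotype without saying that each number is a separate animal. Each p-value therefore sets the difference between genotypes only against the spread of these samples, and that spread may be technical. In bulk RNA, fewer cells of a type and less RNA per cell cannot be told apart.

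A polycistronic miRNA transcript is cut by Drosha in the nucleus and by Dicer in the cytoplasm, and an Argonaute protein keeps 1 strand of each duplex. The bases 2 to 8 of that strand, the seed, pair with target mRNAs, so that miRNAs with the same seed share many targets. The miR-17-92 cluster is known for driving proliferation and restraining apoptosis in many cell types, germ cells included, and miR-106b-25 is its close relative inside the gene of the replication helicase subunit Mcm7.

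The mature sequences show how the 9 main arms fall into 4 seed families, which cut across both clusters. They are written 5′ to 3′ from RefSeq (GRCm38.p6), with the seed in capitals. The seed AAAGUGC joined members of both clusters:
mmu-miR-17-5p: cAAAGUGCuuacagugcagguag
mmu-miR-20a-5p: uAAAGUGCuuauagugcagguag
mmu-miR-106b-5p: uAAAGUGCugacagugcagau
mmu-miR-93-5p: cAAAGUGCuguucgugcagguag
The seed AAGGUGC belonged to miR-18a alone among the main arms:
mmu-miR-18a-5p: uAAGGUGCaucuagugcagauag
The seed GUGCAAA was that of the miR-19 pair:
mmu-miR-19a-3p: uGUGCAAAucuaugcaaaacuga
mmu-miR-19b-3p: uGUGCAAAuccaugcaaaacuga
The seed AUUGCAC again joined both clusters:
mmu-miR-92a-3p: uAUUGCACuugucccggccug
mmu-miR-25-3p: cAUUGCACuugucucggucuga

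Within a family the sequences were close enough that reads could be shared between entries. Aligned at the 5′ end, miR-19a-3p and miR-19b-3p differed at 1 of 23 positions, miR-17-5p and miR-20a-5p at 2 of 23, and miR-92a-3p and miR-25-3p at 3 of 21. The mature miR-19b-3p and miR-92a-3p are each encoded by 2 genes, on chromosomes 14 and X, and their counts cannot be assigned to 1 gene by sequence. RefSeq sequences were matched for 19 of the 20 entries, all but miR-19a-5p.

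The 6 genes of miR-17-92 lie on the plus strand of chromosome 14, in an exon of the non-coding host transcript Mir17hg (chr14:115042879-115046727, GRCm38). Their order from 5′ to 3′ is Mir17, Mir18, Mir19a, Mir20a, Mir19b-1 and Mir92-1, and the mature main arms run from miR-17-5p at chr14:115043684-115043706 to miR-92a-3p at chr14:115044476-115044496. The genes of miR-106b-25 lie on the minus strand of chromosome 5 within Mcm7 (chr5:138164583-138172422). Mir106b (chr5:138165737-138165818) is intronic, and Mir93 and Mir25 overlap exons only of transcripts annotated as retained introns.

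Each library held between 146487 and 246030 miRNA counts, in a table total between 747443 and 5037232 counts. The miRNA totals of the genotypes overlapped (KO 234742, 146487 and 243655, and WT 179761, 196027 and 246030), whereas the table totals were lower in every KO library. Levels are therefore given as CPM, counts scaled to a total of 1000000 miRNA counts. Mature arms differ in length by at most a few bases, and CPM needed no scaling by length. The round spermatid and late germ cell markers miR-34b, miR-34c and miR-449a summed to 314656-354382 CPM in KO and 284177-304524 CPM in WT, with 4 of 6 tested entries called higher in KO. The 2 not called were miR-34b-5p, the highest marker with a mean of 202815 CPM, and miR-34c-5p. Their log2 changes, KO against WT, were 0.096 and 0.28 (edgeR adjusted p = 0.554 and 0.0843). Peritubular and mesenchymal markers summed to 18998-24128 CPM in KO and 25002-34520 CPM in WT, with 5 of 7 tested entries called lower in KO. For comparison, 8.33% of all 348 tested miRNAs were called higher and 13.8% lower. Erythroid markers summed to 38.3-54.6 CPM in KO and 89.0-128 CPM in WT, with miR-486a-3p at 0. Only 1 of their 5 entries was tested, and it was called lower. The sums of spermatogonial, Sertoli and gonadal, endothelial and leukocyte markers overlapped between genotypes. Whether these shifts play a part in the results that follow was not tested. In replicate order, miR-468-5p, a single entry, took 0.447%, 0.369% and 0.553% of the miRNA counts in KO and 6.01%, 4.86% and 5.70% in WT, so results are also given without it in the total.

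The clusters were a large part of the miRNA pool in both genotypes. The main arms together took 13%, 13.4% and 12.8% of the miRNA counts of the KO libraries, in replicate order, and 11.8%, 12.1% and 11.7% of those of the WT libraries. Every KO library was above every WT library, by 1.19 percentage points on average (exact permutation p = 0.1, the lowest value possible with 3 libraries on each side). This total includes miR-468-5p. Leaving it out reduced the log2 difference of the summed miR-17-92 arms, KO against WT, from 0.15 to 0.08. Most of these counts were of miR-17-92, whose sum was 14.1 times that of miR-106b-25 on average over the 6 libraries.

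Among single arms, mmu-miR-19b-3p was the highest, with 50843, 53063 and 58168 CPM in KO and 53744, 48978 and 55782 CPM in WT. It ranked 4 among all miRNA entries by mean level, and its libraries overlapped between genotypes. miR-18a-5p and miR-19a-3p followed at ranks 7 and 8, miR-20a-5p at 24, miR-93-5p at 39, miR-106b-5p at 54, miR-17-5p at 62, miR-92a-3p at 71 and miR-25-3p at 110. The mean level of miR-19b-3p was 71.2 times that of miR-25-3p, an arm of the other cluster. Levels also differed within each cluster. Means ran from 53430 CPM (miR-19b-3p) to 1753 CPM (miR-92a-3p) in miR-17-92, and from 4521 CPM (miR-93-5p) to 751 CPM (miR-25-3p) in miR-106b-25. The order of counts repeated across libraries in most places: miR-19b-3p exceeded miR-18a-5p in 6 of 6 libraries and miR-93-5p exceeded miR-106b-5p in 6 of 6, with ranges that did not meet. Whether different sequences were captured equally well was not tested, here or in the shares and arm ratios below. Neighbours with overlapping ranges were miR-18a-5p with miR-19a-3p, miR-106b-5p with miR-17-5p, and miR-17-5p with miR-92a-3p.

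**Figure D1:**
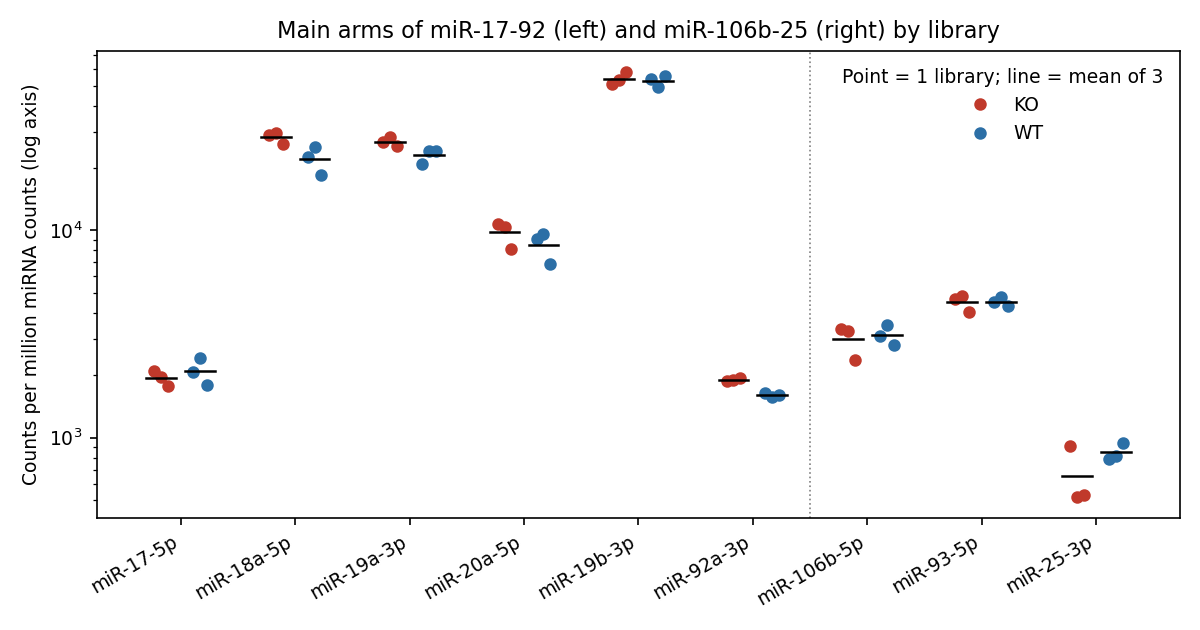
Level of each main arm in CPM (log axis) in the 3 KO and 3 WT libraries, 1 point per library, with a line at each mean. The arms span from 519 CPM for miR-25-3p to 58168 CPM for miR-19b-3p, and the genotypes do not overlap for miR-18a-5p, miR-19a-3p and miR-92a-3p.

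Relative to the miRNA pool, few members of the clusters differed between genotypes by the test. Of the 20 entries, 19 had at least 1 count and 15 passed the filter on low counts, and edgeR's quasi-likelihood test with Benjamini-Hochberg adjustment over all 24682 tested RNAs called 1 of the 15 higher in KO and 0 lower. The other 14 did not pass. At an unadjusted p under 0.05 the counts were also 1 higher and 0 lower, and DESeq2 called 1 of the 9 main arms higher and 0 lower. Among all 348 tested miRNAs, 8.33% were called higher and 13.8% lower, and among all tested RNAs 6.30% were called higher and 76.7% lower on this scale. The median log2 change, KO against WT, was 0.03 over the 15 tested members and -0.11 over the 348 miRNAs. The libraries of the genotypes did not overlap for 4 of the 15 members, against 34.5% of the tested miRNAs. These were miR-18a-5p, miR-19a-3p and miR-92a-3p, higher in KO, and miR-20a-3p, lower in KO.

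The entry that passed was mmu-miR-18a-5p, the sole carrier of its seed among the main arms. It stood at 28810.4, 29409 and 26029 CPM in KO and at 22714, 25241 and 18571 CPM in WT. On this scale all KO libraries lay above all WT libraries, the lowest KO value close above the highest WT value. The KO mean was 28083 ± 1804 CPM (SD, n = 3) and the WT mean 22175 ± 3368 CPM (SD, n = 3), 1.27-fold apart. This amounted to a log2 change of 0.34 ± 0.16 (SE) and an edgeR adjusted p of 0.0467. The call was close to the threshold. It was kept in 9 of 18 alternative fits and lost in 9, and the log2 change was above 0 in all 18. It was kept with the replicate block (edgeR adjusted p = 0.00196), without WT replicate 2 (0.00930), without KO replicate 3 (0.0348) and with no filter (0.0321). TMM factors of the miRNA entries (0.0337), the total without the members (0.0344) and DESeq2 (DESeq2 adjusted p = 0.0196) also kept it. The remaining fits that kept it used TMM factors or the plain library size of the whole table. Those whole-table scalings called 338 and 335 of the 348 tested miRNAs higher, so a call there says little about miR-18a-5p. The call was lost on leaving out KO replicate 1 (edgeR adjusted p = 0.113), KO replicate 2 (0.136), WT replicate 1 (0.0900), WT replicate 3 (0.162) or both replicate 3 libraries (0.0845). Other fits that lost it left the 10 highest miRNAs out of the total (0.0608), used a minimum count of 50 (0.0528) or miRNA entries alone (0.0996). The call was also lost when miR-468-5p was left out of the total, where the log2 change was 0.27 (edgeR adjusted p = 0.123). With that total the genotypes overlapped, KO replicate 3 lying below WT replicate 2.

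A further pair of miR-17-92 arms was higher in each KO library without passing the test. mmu-miR-19a-3p stood at 26672, 28358 and 25429 CPM in the KO libraries and at 20850, 24053 and 24302 CPM in the WT libraries. The log2 change was 0.22 ± 0.15 (SE), with an adjusted p of 0.189 in edgeR. mmu-miR-92a-3p stood at 1874, 1898 and 1941 CPM in the KO libraries and at 1647, 1561 and 1597 CPM in the WT libraries. In edgeR the log2 change was 0.25 ± 0.17 (SE) at an adjusted p of 0.174. For both arms the genotypes did not overlap on this scale, and for miR-92a-3p the libraries within a genotype were tight, with SDs of 33.9 and 43.0 CPM. Without miR-468-5p in the total, miR-19a-3p overlapped between genotypes, with a log2 change of 0.14 (edgeR adjusted p = 0.399). With that total miR-92a-3p still did not overlap, with a log2 change of 0.17 (edgeR adjusted p = 0.346). In other tissues the miR-92 family is known for repressing the pro-apoptotic gene Bcl2l11.

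The remaining miR-17-92 arms overlapped between genotypes. mmu-miR-20a-5p stood at 10765, 10438 and 8134 CPM in the KO libraries and at 9056, 9647 and 6914 CPM in the WT libraries. This amounted to a log2 change of 0.20 ± 0.17 (SE) and an edgeR adjusted p of 0.279. On leaving out 1 library the log2 change ranged from 0.064 (without WT replicate 3) to 0.31 (without KO replicate 3). miR-17-5p, known with miR-20a-5p for repressing the cell-cycle factor E2f1, stood at 2104, 1952 and 1781 CPM in the KO libraries and at 2081, 2413 and 1792 CPM in the WT libraries. The log2 change was -0.11 ± 0.18 (SE), with an adjusted p of 0.579 in edgeR. In both arms the replicate 3 libraries of KO and of WT were the lowest of their genotype. The same held at miR-18a-5p, miR-106b-5p and miR-93-5p, whereas at miR-19b-3p the replicate 3 libraries were the highest of their genotype. The log2 change of miR-19b-3p was 0.03 ± 0.15 (SE, edgeR adjusted p = 0.848).

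None of the 3 main arms of miR-106b-25 passed. mmu-miR-93-5p stood at 4656, 4833 and 4034 CPM in the KO libraries and at 4500.4, 4785 and 4317 CPM in the WT libraries. In edgeR the log2 change was -0.01 ± 0.16 (SE) at an adjusted p of 0.961. mmu-miR-106b-5p stood at 3327, 3263 and 2360 CPM in the KO libraries and at 3082, 3505 and 2784 CPM in the WT libraries. This amounted to a log2 change of -0.07 ± 0.18 (SE) and an edgeR adjusted p of 0.725. In both, KO replicate 3 was the lowest of the 6 libraries. mmu-miR-25-3p stood at 912, 519 and 525 CPM in the KO libraries and at 790, 816 and 943 CPM in the WT libraries. The log2 change was -0.37 ± 0.21 (SE), with an adjusted p of 0.0974 in edgeR. Here 2 KO libraries lay below all WT libraries and KO replicate 1 lay among them. Without KO replicate 1 the log2 change was -0.70 (edgeR adjusted p = 0.00586), without miR-468-5p in the total it was -0.45 (edgeR adjusted p = 0.0482), and with the replicate number as a block it was -0.42 (edgeR adjusted p = 0.0259), and all 3 passed. The change was smaller without KO replicate 2, at -0.25 (edgeR adjusted p = 0.332), without KO replicate 3, at -0.23 (0.359), and without both replicate 3 libraries, at -0.13 (0.535). miR-25-3p was the least counted main arm, with 76 to 232 counts per library.

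**Figure D2:**
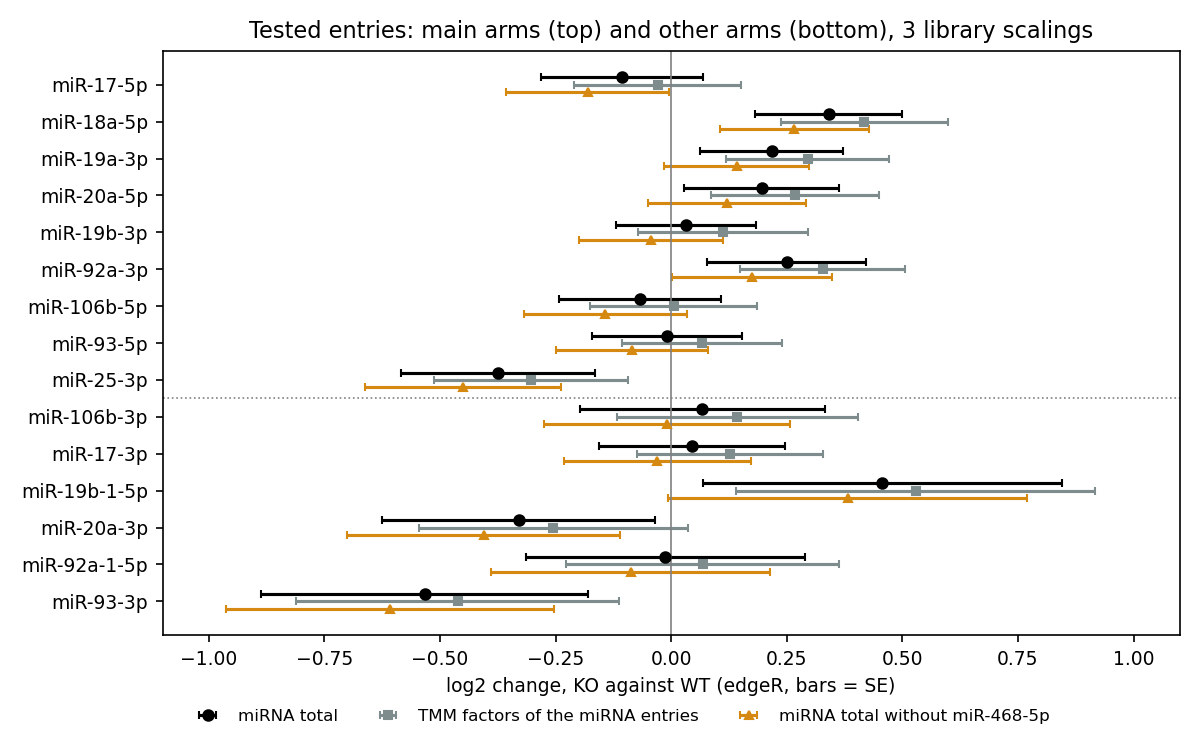
Log2 change, KO against WT, of the 15 tested entries with its SE from edgeR, under 3 scalings of the libraries: the miRNA total, TMM factors of the miRNA entries, and the miRNA total without miR-468-5p. miR-18a-5p is at 0.34, 0.42 and 0.27, and miR-25-3p at -0.37, -0.30 and -0.45.

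All of these values are relative to the miRNA pool, and the choice of reference sets their level. With TMM factors of the whole small RNA table, of which miRNAs were the smaller part, all 9 main arms were called higher in KO, with log2 changes from 1.55 (miR-25-3p) to 2.24 (miR-18a-5p). On that scale 97.1% of the 348 tested miRNAs were called higher, so the count of main arms is near the background. That scaling moved the median of all 24682 tested RNAs from -2.14 to -0.21 and the median of the 348 miRNAs from -0.11 to 1.81. On both scales miR-18a-5p lay above the median miRNA and miR-25-3p below it, and neither scale gives amounts per cell.

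Summed by cluster, miR-17-92 stood at 121069, 125117 and 121483 CPM in KO and 110091, 111893 and 108958 CPM in WT. The genotypes did not overlap and each was tight, with means of 122556 ± 2227 CPM for KO and 110314 ± 1479.9 CPM for WT (SD, n = 3). The log2 difference was 0.15, with an exact permutation p of 0.1, the smallest possible. Without miR-468-5p in the total the log2 difference was 0.08, with the same exact p. For miR-106b-25 the sums were 8895, 8615 and 6920 CPM in KO and 8372, 9106 and 8044 CPM in WT, which overlapped, with a log2 difference of -0.07 (exact permutation p = 0.8). The ratio of the miR-17-92 sum to the miR-106b-25 sum, which no library scaling can alter, was 13.6, 14.5 and 17.6 in KO and 13.1, 12.3 and 13.5 in WT. The lowest KO ratio lay just above the highest WT ratio (exact permutation p = 0.1).

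The shares of the arms within each cluster are also free of scaling. Over the 6 libraries miR-19b-3p made up 46.0% of the miR-17-92 main arms, miR-18a-5p 21.5%, miR-19a-3p 21.4%, miR-20a-5p 7.85%, miR-17-5p 1.74% and miR-92a-3p 1.503%. Position along the transcript did not order these shares: the first and the last hairpins gave the smallest pair of shares and the fifth gave the largest. The share of miR-92a-3p was 1.55%, 1.52% and 1.60% in KO and 1.496%, 1.40% and 1.47% in WT, the only share without overlap. Its exact permutation p was 0.1 and 0.45 after adjustment over the 9 shares. The share of miR-18a-5p was 23.8%, 23.5% and 21.4% in KO and 20.6%, 22.6% and 17.04% in WT, which overlapped (exact permutation p = 0.2, adjusted 0.45). That of miR-19b-3p was 42.0%, 42.4% and 47.9% in KO and 48.8%, 43.8% and 51.2% in WT (exact permutation p = 0.2, adjusted 0.45). Within miR-106b-25, miR-93-5p made up 54.5%, miR-106b-5p 36.5% and miR-25-3p 8.998%, and the adjusted exact p of these 3 shares ranged from 0.54 to 0.9.

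**Figure D3:**
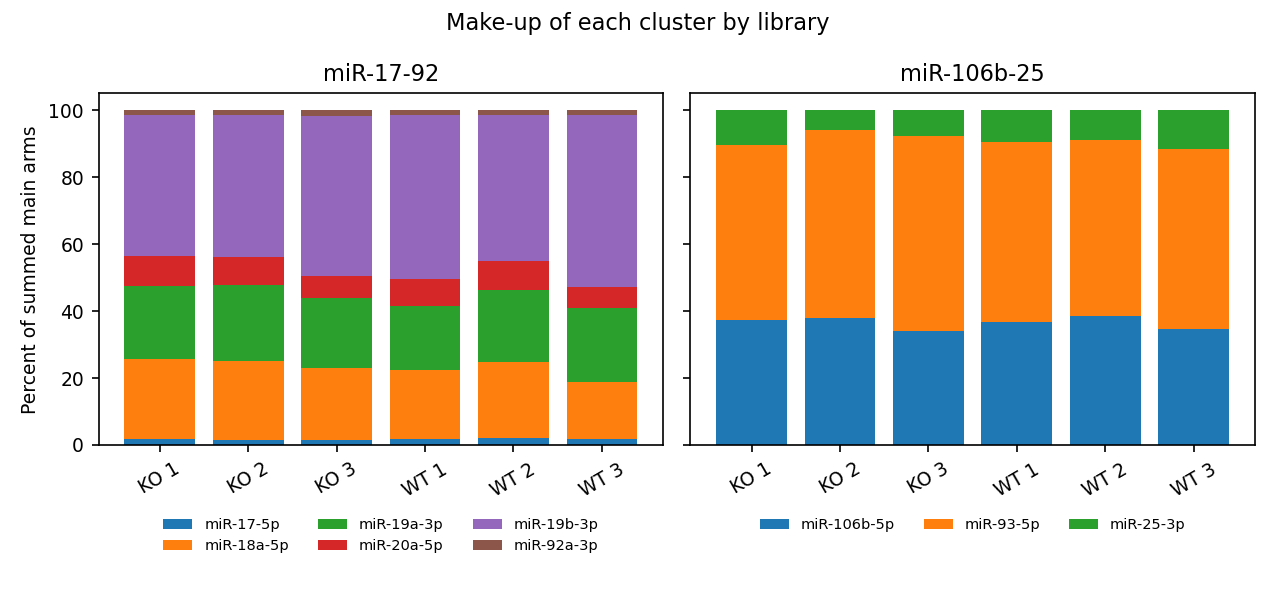
Percent of the summed main arms that each arm made up, in each library, for miR-17-92 and miR-106b-25. In every library miR-19b-3p and miR-93-5p are the largest parts, with means of 46.0% and 54.5%, and the order of miR-18a-5p and miR-19a-3p, and of miR-17-5p and miR-92a-3p, is not the same in all libraries.

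By seed family, the miR-19 seed GUGCAAA held 62.8% of the main-arm counts of both clusters, the miR-18 seed AAGGUGC 20.1%, the miR-17 seed AAAGUGC 15.03% and the miR-92 seed AUUGCAC 2.01%. The miR-19 family stood at 77515, 81420.2 and 83598 CPM in the KO libraries and at 74594, 73031 and 80084 CPM in the WT libraries. These overlapped, with a log2 difference of 0.09 (exact permutation p = 0.2, adjusted over 4 families 0.4). The miR-17 family stood at 20853, 20486 and 16310 CPM in the KO libraries and at 18719, 20349 and 15807 CPM in the WT libraries, a log2 difference of 0.07 (exact permutation p = 0.5, adjusted 0.6). The miR-92 family, whose members miR-92a-3p and miR-25-3p had log2 changes of opposite sign, stood at 2786, 2417 and 2467 CPM in the KO libraries and at 2437, 2377 and 2540 CPM in the WT libraries, a log2 difference of 0.06 (exact permutation p = 0.6, adjusted 0.6).

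The other arm of each hairpin, usually discarded as the passenger strand, was counted less often than the main arm in every hairpin. For every 100 counts of miR-17-5p there were 24.97 counts of miR-17-3p on average. The corresponding means were 7.86 for miR-92a-1-5p, 6.80 for miR-106b-3p, 2.62 for miR-93-3p, 1.65 for miR-20a-3p and 0.160 for miR-19b-1-5p. miR-17-3p was the highest of the other arms, with 485.6, 484.7 and 546 CPM in KO and 439, 510 and 520 CPM in WT. It outnumbered the duplex partner of every other hairpin, though its own main arm was among the lowest. Its sequence carries a different seed:
mmu-miR-17-3p: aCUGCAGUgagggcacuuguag
The ratio of miR-20a-3p to miR-20a-5p was 1.38, 1.31 and 1.31 per 100 in KO and 1.84, 1.59 and 2.47 per 100 in WT, the only one without overlap (exact permutation p = 0.1, adjusted over 6 ratios 0.6). Its level rested on 20 to 42 counts per library. All 6 tested other arms missed the threshold of the edgeR test, with log2 changes from -0.53 (miR-93-3p, adjusted p = 0.160) to 0.46 (miR-19b-1-5p, adjusted p = 0.274). On leaving out 1 library miR-93-3p ranged from -0.91 (without KO replicate 1, where it passed with an edgeR adjusted p of 0.0492) to -0.15 (without KO replicate 3), and without both replicate 3 libraries it was 0.066. miR-19b-1-5p ranged from 0.084 (without KO replicate 1) to 0.75 (without WT replicate 1). miR-18a-3p and miR-19a-5p had 6 counts each over the 6 libraries, and miR-25-5p had 0.

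The other arms tell apart the genes that share a main arm. miR-19b-1-5p, from chromosome 14, had 104 counts over the 6 libraries and miR-19b-2-5p, from chromosome X, had 1. miR-92a-1-5p had 169 counts and miR-92a-2-5p had 1. The sequences of these arms differ between the genes:
mmu-miR-19b-1-5p: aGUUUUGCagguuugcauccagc
mmu-miR-19b-2-5p: aGUUUUGCagauuugcaguucagc
mmu-miR-92a-1-5p: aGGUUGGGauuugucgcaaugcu
mmu-miR-92a-2-5p: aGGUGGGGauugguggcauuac

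The paralogous X-linked cluster miR-106a-363 was near the floor of the data. Of its 8 entries outside the members, 7 had counts and 1, miR-20b-5p, was tested. It stood at 68.2, 41.0 and 57.5 CPM in the KO libraries and at 83.4, 61.2 and 56.9 CPM in the WT libraries, a log2 change of -0.22 (edgeR adjusted p = 0.603). miR-106a-5p, which differs from miR-17-5p at 1 of 23 positions, had 30 counts in all, and miR-18b-5p had 28. Among the other miRNAs with the miR-92 seed, miR-32-5p ranged over 279-324 CPM in the KO libraries and 217-429 CPM in the WT libraries (log2 change -0.04, edgeR adjusted p = 0.892). Its partner arm miR-32-3p ranged over 27.3-34.1 CPM in the KO libraries and 45.9-69.1 CPM in the WT libraries, without overlap (log2 change -0.80, edgeR adjusted p = 0.0759). miR-367 was at 0 in every library.

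Across the 6 libraries, the miRNAs whose centred log2 levels lay nearest to those of the miR-17-92 sum were miR-871-3p, miR-34c-5p and miR-34b-5p. Their Euclidean distances were 0.18, 0.19 and 0.21, against a median of 0.53 over the 88 miRNAs with a mean of at least 1000 CPM. The comparison rests on 6 libraries that share their scaling with the sum.

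The Mir17hg locus was also listed in the deposited piRNA table, which counts reads per position, strand and length in 773 clusters. The cluster chr14:115039203-115049014, 9812 bp long, covered the whole host transcript and held 4271 entries, 1219 of them with counts. Of its 145114 counts, 144949 (99.89%) started within 2 nt of an annotated mature arm and 165 lay elsewhere. By length, 80.0% were 18-24 nt, 19.9% were 25-28 nt and 0.0792% were 29-32 nt, the class usual for MIWI-bound piRNAs. No cluster of that table covered the genes on chromosome 5 or X. For the 6 main arms the total in this table was 0.97 (miR-19a-3p) to 1.32 (miR-17-5p) times that of the small RNA table, so both tables appear to count largely the same reads, although single reads were not compared.

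By the start of the matched entry, several arms had counts at more than 1 position, and a 5′ end at another base moves the seed. The reads' own 5′ ends were not seen. At miR-18a-5p, 31.7%, 31.7% and 32.7% of counts in KO and 31.3%, 31.4% and 30.3% in WT started 1 nt before the annotated end. At miR-19b-3p the share starting 1 nt early was 38.9%, 38.4% and 36.0% in KO and 36.9%, 37.6% and 36.0% in WT. At miR-20a-5p it was 28.5% to 30.02% over the 6 libraries. At miR-17-5p the second start lay on the other side, 1 nt late, with 27.4% to 32.2% of counts. The total of this arm here was 1.32 times that of the small RNA table. Its first base is 1 of the 2 positions at which it differs from the more abundant miR-20a-5p. Whether reads of miR-20a-5p were counted at this late start was not tested. By contrast, 95.5% to 97.1% of miR-19a-3p counts and 96.0% to 99.6% of miR-92a-3p counts began at the annotated base. The near-identical pair miR-19a-3p and miR-19b-3p thus differed in how often counts fell on entries with a shifted start. Forms with these shifted starts, taken from the RefSeq hairpins to the annotated 3′ end with bases 2 to 8 in capitals, would have these seeds:
mmu-miR-18a-5p, 1 nt early: cUAAGGUGcaucuagugcagauag
mmu-miR-19b-3p, 1 nt early: cUGUGCAAauccaugcaaaacuga
mmu-miR-20a-5p, 1 nt early: cUAAAGUGcuuauagugcagguag
mmu-miR-17-5p, 1 nt late: aAAGUGCUuacagugcagguag
The genotypes overlapped in the shifted shares of miR-17-5p, miR-20a-5p and miR-19b-3p. They did not overlap at miR-18a-5p, where the early share was 32.02% ± 0.608 in KO and 31.03% ± 0.611 in WT (SD, n = 3, exact permutation p = 0.1), a difference of 0.989 percentage points. Of the 30 shares by start at the 6 arms, 4 did not overlap (13.3%). These shares are not independent, since those of an arm have a fixed total, and some were 0 in every library. At miR-18a-5p the share at the annotated start was lower in KO without overlap, the counterpart of its higher early share.

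**Figure D4:**
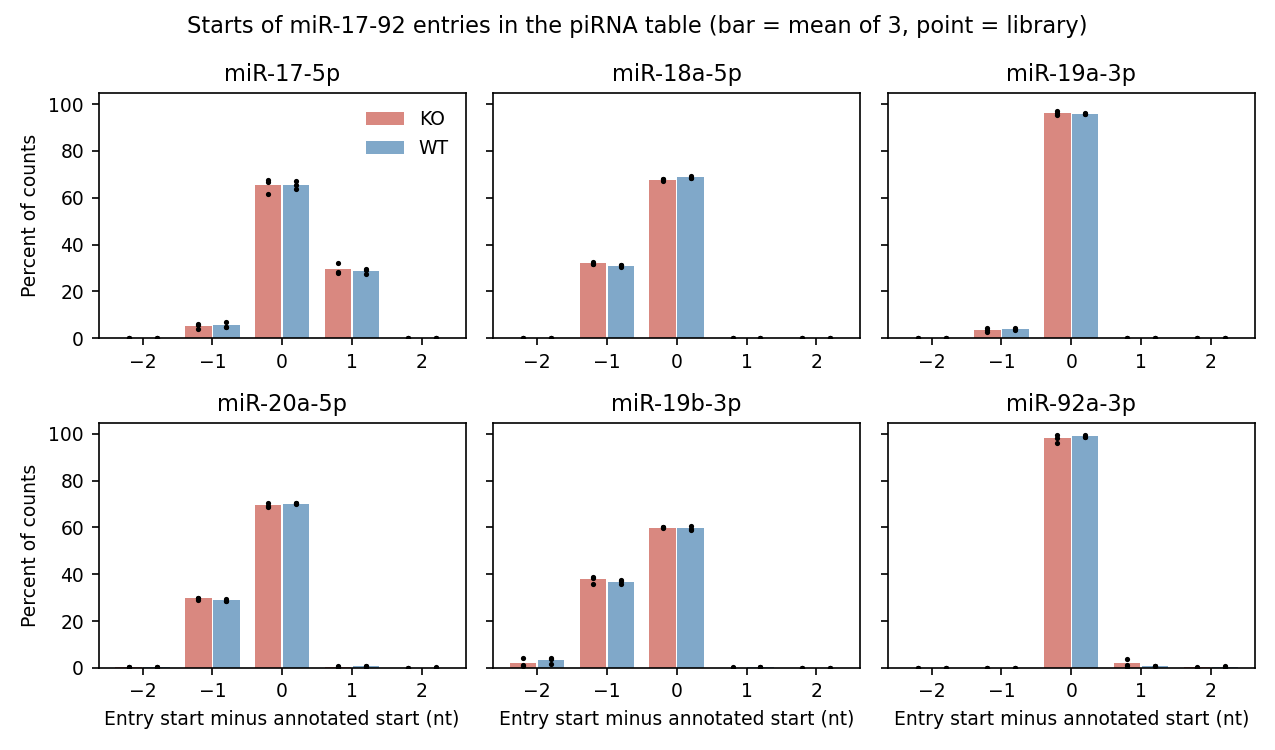
Percent of piRNA-table counts by start of the matched entry relative to the annotated 5′ end, in nt, at the 6 miR-17-92 main arms. Bars are the mean of 3 libraries and points are single libraries. On average 31.5%, 29.25% and 37.3% of counts start 1 nt early at miR-18a-5p, miR-20a-5p and miR-19b-3p, against 3.79% at miR-19a-3p.

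Lengths at the arms were compared by the share of each length. The most frequent length was 24 nt at miR-18a-5p, miR-19a-3p, miR-20a-5p, miR-19b-3p and 23 nt at miR-17-5p in each library. At miR-92a-3p it was 24 nt in 4 libraries and 25 nt in the replicate 3 libraries of both genotypes. The 24 nt share of miR-19a-3p was 67.0%, 67.0% and 66.1% in KO and 62.2%, 63.1% and 62.9% in WT. It was 56.7%, 54.1% and 55.5% against 54.0%, 52.0% and 51.7% at miR-20a-5p, and 52.0%, 50.9% and 49.5% against 48.0%, 48.5% and 47.6% at miR-19b-3p. In these 3 arms every KO library was above every WT library (exact permutation p = 0.1 each), by 2.76 to 3.97 percentage points. Over the 6 arms and 12 lengths, 15 of 72 shares (20.8%) did not overlap, these 3 higher in KO and 12 lower. Those lower in KO included the shares of miR-19b-3p at 19, 20, 21, 22 and 23 nt and of miR-20a-5p at 19 and 22 nt. The shares of an arm have a fixed total, so a higher share at 24 nt lowers others, and the 72 shares are not independent. Some, such as those of miR-92a-3p at 18 and 19 nt, were 0 in every library and could not differ. The mean length differed by -0.12 nt (miR-92a-3p) to 0.051 nt (miR-19b-3p), KO minus WT, over the 6 arms. It did not overlap in 1 of the 6, miR-19a-3p, with 23.547, 23.551 and 23.549 nt in KO and 23.534, 23.475 and 23.533 nt in WT (exact permutation p = 0.1).

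Other entries with miRNA names in the same table served as a comparison, namely the 8 with at least 100 counts in each library. Mean lengths of miR-26a-5p, miR-301a-3p and miR-7a-5p differed by 0.014, 0.074 and -0.066 nt, KO minus WT. Those of miR-468-5p, miR-7210-5p, miR-7214-3p and miR-7232-5p, whose means in WT were 26.7 to 30.98 nt, differed by -0.99, -2.08, -1.52 and -1.54 nt, without overlap (exact permutation p = 0.1 each). That of miR-7217-3p differed by -0.39 nt, with overlap. The largest difference among the miR-17-92 arms was therefore smaller than that of each of these 5 entries. The windows were not alike, however. Plus-strand arms, those of miR-17-92 included, were taken by starts within 2 nt of the annotated start. The minus-strand miR-468-5p, miR-7a-5p, miR-7214-3p and miR-7232-5p were taken from any position between 6 nt before and 6 nt after the arm. The length of the matched entry was used in place of the read's own length, and the split of counts between entries of the same place and length is uncertain.

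**Figure D5:**
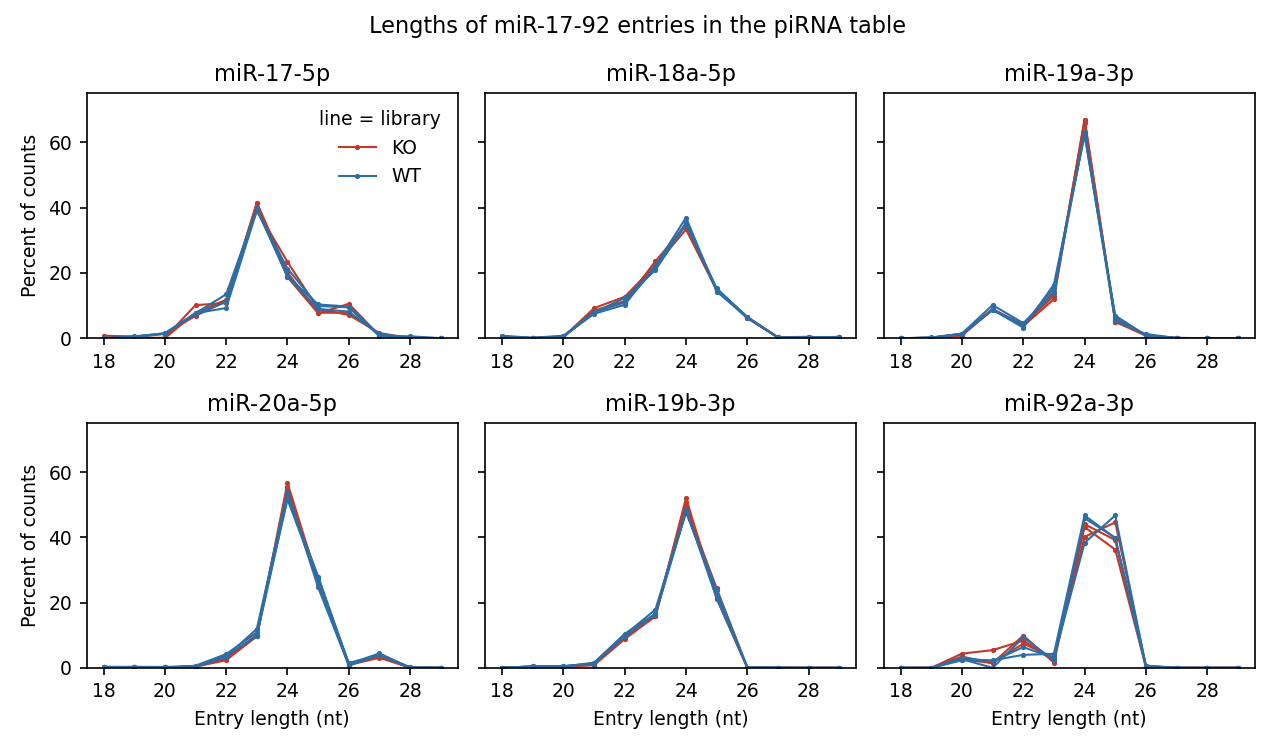
Percent of piRNA-table counts by entry length (18 to 29 nt) at the 6 miR-17-92 main arms, 1 line per library. The peaks are at 23 nt at miR-17-5p and at 24 nt elsewhere, except at miR-92a-3p in both replicate 3 libraries (25 nt), and the KO peaks are higher at miR-19a-3p, miR-20a-5p and miR-19b-3p.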

How the data were processed

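The authors deposited 2 tables of raw counts, whole reads per reference sequence and library, counted by featureCounts v1.5.0-p2 per the file headers. The submitters' processing notes also name cutadapt, DESeq2 and mouse build mm9, yet positions at the miRNA genes matched GRCm38. For the aligner and for multiply matching reads, settings are not given in these sources. The labels' protocols name a mirVana kit for isolation and an Ion Total RNA-Seq kit for the libraries. Lengths in the tables include 20 nt of padding, which were subtracted.

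KO was compared with WT in edgeR 4.0.16 (R 4.3.3, quasi-likelihood, filterByExpr with minimum count 10 and total 15, library size equal to the miRNA total, Benjamini-Hochberg over all tested entries, threshold 0.05), checked on simulated data. Sums, shares and ratios used two-sided exact permutation tests (Python 3.11.15, scipy 1.17.1), whose smallest p is 0.1. Named RNAs are all members, the tested entries of the miR-106a-363 and miR-92 seed lists, and the 3 miRNAs nearest to the miR-17-92 sum. miR-468-5p and the other entries compared by length were chosen after their values were seen. The members, lists and tests were chosen with earlier results of these data known. Alternatives covered other library scalings, DESeq2 1.42.0, other filters, the miRNA entries alone, a replicate block and leaving out each library. Leaving out both replicate 3 libraries, the total without miR-468-5p, and the start and length shares were added after seeing the data.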

Additional observations from a re-analysis of the deposited data

How the results depend on the processing

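Of 315 alternative log2 changes with a test across all RNAs, 235 kept their direction and their side of the threshold and 53 changed sign. Of these 315, 38 passed the threshold where the reported value did not, 34 of them with the scalings of the whole table, and 9 missed it where the reported value passed. Of 265 alternatives of values with an exact permutation test, 20 changed sign; none could pass 0.05, so their side of the threshold is not informative. Of 36 counts of called main arms, 14 moved. The causes were not tested. The count of main arms called higher in KO was 1 as reported and 9 with TMM factors or the plain library size of the whole table. It was 0 with the miRNA total without the 10 highest, with a minimum count of 50, with miRNA entries alone, without both replicate 3 libraries and without miR-468-5p in the total, and 0 to 1 on leaving out 1 library. The count called lower was 0 as reported, 1 with the replicate block, 1 without miR-468-5p, and 0 to 1 on leaving out 1 library.

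With whole-table TMM factors, and in parentheses with the plain table size, log2 changes turned positive for miR-106b-5p 1.84 (1.68), miR-17-5p 1.80 (1.64), miR-20a-3p 1.60 (1.42), miR-25-3p 1.55 (1.38), miR-92a-1-5p 1.91 (1.74), miR-93-3p 1.39 (1.22), miR-93-5p 1.91 (1.74), miR-20b-5p 1.71 (1.54), miR-32-3p 1.12 (0.95) and miR-32-5p 1.89 (1.71). With TMM factors of the miRNA entries the signs turned for miR-106b-5p 0.0056, miR-92a-1-5p 0.068, miR-93-5p 0.067 and miR-32-5p 0.046, and with DESeq2 for miR-106b-5p 0.0197, miR-92a-1-5p 0.086, miR-93-5p 0.082 and miR-32-5p 0.061. With the members left out of the total they turned for miR-92a-1-5p 0.0067 and miR-93-5p 0.011, and without miR-468-5p for miR-106b-3p -0.0082, miR-17-3p -0.0303 and miR-19b-3p -0.044. Without both replicate 3 libraries they turned for miR-106b-5p 0.00072, miR-92a-1-5p 0.041, miR-93-3p 0.066 and miR-93-5p 0.031. The miR-106b-25 sum had a log2 difference of 0.0074 with TMM factors of the miRNAs, 1.86 with those of the table, 0.0037 without both replicate 3 libraries, and -0.14 to 0.043 on leaving out 1 library; the miR-17-92 sum stayed above 0, at 0.14 to 0.16 on leaving out 1 library. Without miR-468-5p the seed families AAAGUGC and AUUGCAC were at -0.0052 and -0.017. Without miR-19b and miR-92a the share differences of miR-19a-3p and miR-20a-5p were -1.19 and -0.60 points, that of miR-106b-5p as a log2 ratio was 0.096, and the top-entry share of miR-17-5p with entries of 1 place summed was 1.19 points.

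Log2 changes that turned on leaving out 1 library ranged over -0.076 to 0.16 (miR-106b-3p), -0.15 to 0.078 (miR-106b-5p), -0.025 to 0.092 (miR-17-3p), -0.21 to 0.0083 (miR-17-5p), -0.024 to 0.074 (miR-19b-3p), -0.10 to 0.10 (miR-92a-1-5p), -0.061 to 0.065 (miR-93-5p) and -0.23 to 0.25 (miR-32-5p). Other values that turned ranged over -0.031 to 0.18 (log2 of seed AAAGUGC), -0.0053 to 0.097 (log2 of seed AUUGCAC), -0.024 to 1.66 (share of miR-19a-3p), -0.45 to 0.89 (share of miR-20a-5p), -1.19 to 1.00 (share of miR-106b-5p), -0.0024 to 0.072 (arm ratio of miR-19b-1-5p), -0.54 to 0.56 (top entry of miR-17-5p) and -3.96 to 0.064 (top entry of miR-92a-3p). Some values that kept their sign moved by over 1.5 times and ranged over -0.45 to -0.19 (miR-20a-3p), -0.39 to -0.045 (miR-20b-5p), 1.31 to 4.07 (share of miR-18a-5p), -5.91 to -2.20 (share of miR-19b-3p) and -3.23 to -1.12 (share of miR-25-3p), besides those given for miR-20a-5p, miR-25-3p, miR-93-3p and miR-19b-1-5p.

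The pairing check gave correlations between the deviations of same-numbered KO and WT libraries of 0.026, 0.083 and 0.12 over all tested RNAs and -0.043, 0.20 and 0.11 over miRNAs. Not every pair was above 0.1, so the libraries were taken to share only a number, although over all RNAs each library correlated best with its own number, a hint from the data and not the design. With the replicate block miR-25-3p was at -0.42 (edgeR adjusted p = 0.0259) and called, miR-18a-5p at 0.35 (0.00196), and the signs turned for miR-92a-1-5p 0.0033 and miR-32-5p 0.0077. Among all tested miRNAs, 29 were called higher and 48 lower as reported, 34 and 57 with the block, 25 and 21 with DESeq2, 18 and 26 with miRNA entries alone, 17 and 32 with a minimum count of 50, 338 and 2 with whole-table TMM factors, and 335 and 3 with the plain table size. Counting error limits the entries with few counts per library, such as miR-32-3p (4 to 17), miR-20b-5p (6 to 16), miR-19b-1-5p (9 to 32), miR-93-3p (11 to 43) and miR-25-3p (76 to 232).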
